A study of Rattus norvegicus with 30 samples.

Results

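Osteoclast and cell fusion genes were followed in the plantaris tendons of rats whose tendon had been cut and sutured. The list held 10 genes: Ocstamp, Dcstamp, Acp5, Ctsk, Atp6v0d2, Nfatc1, Oscar, Itgb3, Tnfrsf11a and Tnfsf11. The members were chosen by the difference between 21-day repaired and control tendons, in which Ocstamp was among the largest rises, and the remaining genes were added for their known place in the osteoclast programme. Of the 10 genes, 8 were among the 13124 genes of the count table, while Dcstamp and Tnfsf11 were not analysed here.

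Osteoclasts are the multinucleated cells that resorb bone. They form when precursors of the monocyte and macrophage lineage, kept alive by CSF1, receive RANK ligand through its receptor RANK (Tnfrsf11a) together with a co-stimulatory signal from receptors such as OSCAR that pair with ITAM adaptor proteins. These signals converge on the transcription factor NFATc1, which drives the genes of cell fusion (Ocstamp, Dcstamp, Atp6v0d2), of matrix attachment (Itgb3) and of resorption (Acp5, Ctsk). Macrophages use part of the same machinery when they fuse into the multinucleated giant cells found around sutures and other foreign material, and tendon is not normally a site of osteoclasts.

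The study asked whether blocking prostaglandin D2 synthesis with GSK2894631A, an inhibitor of hematopoietic prostaglandin D synthase, alters tendon healing. All animals were 3-month-old male Sprague Dawley rats. Control rats had neither surgery nor compound (3 tendons), and all other rats had a full-thickness tenotomy of both plantaris tendons with immediate suture repair, followed by oral gavage of the compound or its vehicle 2 times a day. The repaired groups are named by days after surgery and dose: 7D 0 mg/kg (vehicle, n = 5), 7D 2 mg/kg (n = 4), 7D 6 mg/kg (n = 3), 21D 0 mg/kg (vehicle, n = 5), 21D 2 mg/kg (n = 5) and 21D 6 mg/kg (n = 5). The right tendon, cut free below the muscle and above the heel bone, was sequenced as bulk RNA, so that each tendon is 1 animal and fewer cells of a type cannot be told apart from less RNA per cell. Because control rats had no operation, injury, suture material and anaesthesia cannot be told apart either.

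Levels are given as counts per 1000000 (CPM), scaled to the depth and composition of each library by the trimmed mean of M-values (TMM). They compare 1 gene between tendons and not different genes with each other, because no transcript lengths were used. Differences are log2 fold changes ± SE from edgeR's quasi-likelihood test over the 12558 genes kept by a filter on low counts, with Benjamini-Hochberg adjusted p-values over all of them, and a gene is called at an adjusted p under 0.05. All 8 measured members passed the filter, although Ocstamp, Atp6v0d2 and Oscar passed it only through the repaired groups. The rise at 21 days that chose the list was read without a named dose. It was taken as the difference of 21D 0 mg/kg from control, which is given without a test for any gene, and for Ocstamp no difference from control is read as a test in any group. For the other members, values of the remaining groups against the same 3 control tendons are not independent of the choice, above all at 21 days. The comparisons among 7D groups set no 21-day or control tendons against each other or against the 7D tendons. However, the filter, the scaling and the estimate of spread behind their p-values came from all 30 tendons.

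The libraries held 12405741 to 49909374 counts, and 3 counts corresponded to 0.0561 to 0.245 CPM. Skeletal muscle was the main other tissue in the control tendons: 25 muscle genes took 19.5 to 27.7% of their counts, against 0.172 to 1.3% in 7D 0 mg/kg, 0.00929 to 0.0122% in 7D 2 and 6 mg/kg, and 0.0668 to 9.67% at 21 days. The TMM factors were 0.599 to 0.789 in the control and 0.950 to 1.10 in the repaired libraries. Muscle content therefore moved with repair in every comparison against control, and its part in the results was not tested there. The 9 tendon fibroblast markers measured summed to 9038 to 37034 CPM in control and 21865 to 53591 CPM in repaired tendons, but Col1a1 made up 81.3 to 96.2% of these sums. At 7 days 4 of the 9, Tnmd, Mkx, Fmod and Chad, were called lower than control at every dose, near the 33.8 to 35.6% of all genes called lower. Of the same 9, 2, 1 and 2 were called higher with 0, 2 and 6 mg/kg.

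Promoter sequences of RefSeq (build GRCr8) were on hand for 4 of the 8 measured members, with 5 start sites in all. The 250 bases before the start are shown for Ocstamp, whose rise defined the list, and for the starts that hold the core letters TGGAAA bound by NFAT factors, on either strand, because NFATc1 is the factor that these genes are known to share. Capitals mark each match of TGGAAA or its reverse complement TTTCCA, and each sequence runs 5′ to 3′ on the gene's strand.
Ocstamp, chr3:174560908-174561157, reverse strand: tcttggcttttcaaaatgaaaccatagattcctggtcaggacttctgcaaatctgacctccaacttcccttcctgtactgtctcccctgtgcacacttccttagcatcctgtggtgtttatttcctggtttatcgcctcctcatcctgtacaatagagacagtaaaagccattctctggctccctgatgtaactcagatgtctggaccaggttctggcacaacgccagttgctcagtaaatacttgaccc
Oscar, chr1:74522633-74522882, forward strand: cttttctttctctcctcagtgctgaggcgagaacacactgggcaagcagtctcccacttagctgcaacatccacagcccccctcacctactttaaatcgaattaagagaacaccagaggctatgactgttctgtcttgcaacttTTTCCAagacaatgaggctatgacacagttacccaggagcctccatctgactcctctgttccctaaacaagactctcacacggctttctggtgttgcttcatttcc
Ctsk, chr2:185747298-185747547, forward strand: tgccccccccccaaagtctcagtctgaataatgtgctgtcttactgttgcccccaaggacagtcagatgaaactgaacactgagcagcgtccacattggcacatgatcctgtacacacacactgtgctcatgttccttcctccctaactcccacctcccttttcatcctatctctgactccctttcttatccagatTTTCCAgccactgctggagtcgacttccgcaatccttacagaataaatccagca
Acp5, chr8:28943930-28944179, reverse strand: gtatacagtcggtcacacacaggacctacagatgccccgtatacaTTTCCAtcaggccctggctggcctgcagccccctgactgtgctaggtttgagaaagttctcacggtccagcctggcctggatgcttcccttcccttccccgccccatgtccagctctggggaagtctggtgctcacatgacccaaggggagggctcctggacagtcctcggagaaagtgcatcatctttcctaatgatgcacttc
TGGAAA was found before 3 of the 5 starts, those of Oscar and Ctsk and 1 of 2 starts of Acp5, and 19.7% of 33469 promoters of the same length hold it. The AP-1 letters TGANTCA were before none of the 5 starts, against 6.34% of all promoters, and the PU.1 letters GAGGAA were before Ctsk alone, against 23.3%. A match describes letters in the window and is not a binding site.

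Ocstamp, a multipass membrane protein needed for the fusion of osteoclast precursors and macrophages, was all but absent from control tendons. It had 0, 1 and 0 counts in the 3 control tendons. The 5 vehicle tendons at 7 days were at 16.4, 5.81, 9.001, 2.90 and 6.07 CPM. Those of 7D 2 mg/kg were at 16.2, 7.40, 5.19 and 2.12 CPM, while the 3 of 7D 6 mg/kg were at 13.3, 2.04 and 1.25 CPM. Every repaired tendon was above every control tendon, and within each 7D group 1 tendon stood well above the rest. With the controls set at the floor of 3 counts in the shallowest of them, the mean of 7D 0 mg/kg was at least 32.8-fold higher, that of 7D 2 mg/kg at least 31.5-fold and that of 7D 6 mg/kg at least 22.6-fold. Single tendons carried much of these bounds, which fell to 20.01-fold without 7D 2 mg/kg replicate 2 and to 6.72-fold without 7D 6 mg/kg replicate 1.

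At 21 days the Ocstamp level ranged more widely with vehicle and 2 mg/kg. The vehicle tendons were at 0.955, 31.5, 0.810, 2.95 and 15.0 CPM. Those given 2 mg/kg were at 1.54, 19.1, 0.538, 15.9 and 4.35 CPM, while those given 6 mg/kg were at 0.930, 0.811, 1.20, 1.91 and 7.42 CPM. The 2 high tendons of 21D 0 mg/kg and the 2 of 21D 2 mg/kg carried most of those groups' means, and the remaining tendons were still above all controls. The group means were 10.2 ± 13.3 (SD), 8.29 ± 8.61 and 2.45 ± 2.81 CPM. On the same floor, 21D 0 mg/kg was at least 41.8-fold, 21D 2 mg/kg at least 33.9-fold and 21D 6 mg/kg at least 10.02-fold higher than control. The bound fell to 20.1-fold without 21D 0 mg/kg replicate 2 and to 4.95-fold without 21D 6 mg/kg replicate 5.

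**Figure D1:**
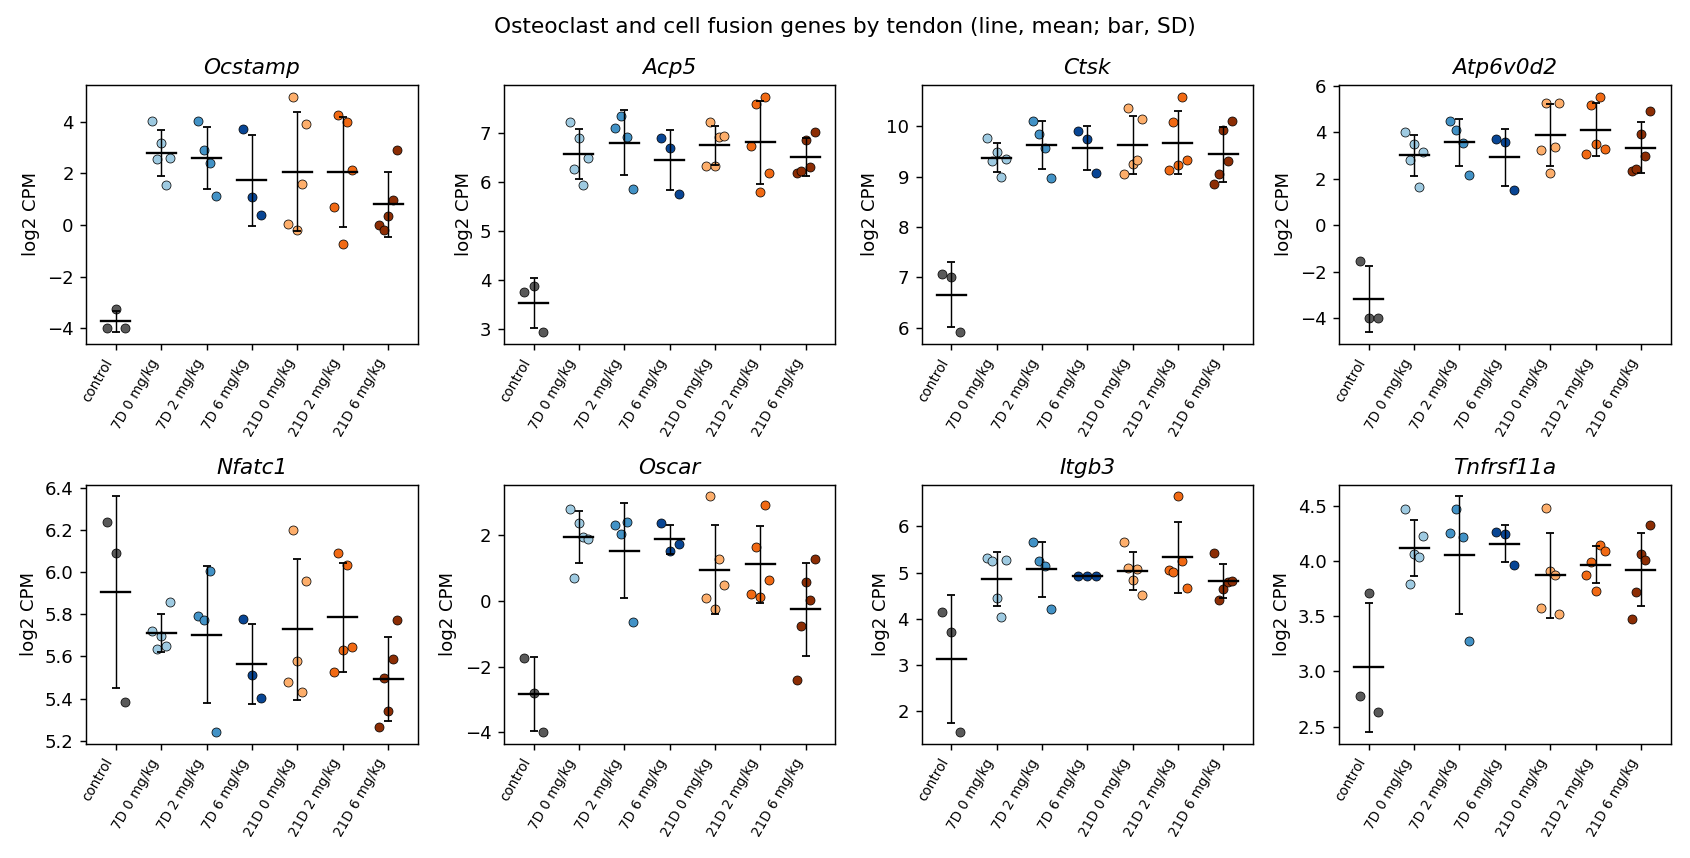
Levels of the 8 measured genes in each of the 30 tendons. The y axis is log2 CPM with 2 counts added before the logarithm, so that tendons with 0 counts sit at about -4, points are tendons, the line is the group mean and the bar the SD. In every panel but that of Nfatc1 the repaired groups lie above the control mean, and the points of Ocstamp spread most within groups.

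The resorption enzymes followed. Ctsk encodes cathepsin K, the collagen-degrading cysteine protease of osteoclasts, which activated fibroblasts and macrophages also make. It was at 133, 129 and 60.5 CPM in control and at 871, 631, 716, 509 and 648 CPM in 7D 0 mg/kg. It was at 561, 1091, 601, 1534 and 647 CPM in 21D 2 mg/kg. The lowest of the 27 repaired tendons, at 460 CPM, was still above the highest control. The log2 fold changes against control were 2.65 ± 0.42, 2.93 ± 0.43 and 2.86 ± 0.44 at 7 days with 0, 2 and 6 mg/kg and 3.04 ± 0.43 and 2.78 ± 0.42 at 21 days with 2 and 6 mg/kg. The adjusted p was at most 4.44e-06 in these 5 comparisons by edgeR.

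Acp5 encodes tartrate-resistant acid phosphatase, the classical stain for osteoclasts, which tissue macrophages also express. It was at 13.5, 14.7 and 7.59 CPM in control and at 151, 77.0, 120, 61.5 and 89.9 CPM in 7D 0 mg/kg. The tendons of 21D 2 mg/kg were at 107, 194, 56.0, 215 and 73.1 CPM. All repaired tendons were again above all controls. The 5 tested log2 fold changes lay between 2.94 ± 0.48 (7D 6 mg/kg) and 3.43 ± 0.47 (21D 2 mg/kg), with adjusted p of at most 8.50e-06 by edgeR.

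Atp6v0d2 encodes the d2 subunit of the vacuolar proton pump, which is also needed for precursor fusion. It had 6, 0 and 0 counts in the control tendons, and repaired groups averaged 9.14 ± 4.78, 13.7 ± 7.64 and 9.14 ± 5.56 CPM at 7 days and 20.2 ± 16.7, 22.1 ± 17.4 and 12.7 ± 10.6 CPM at 21 days with 0, 2 and 6 mg/kg. Groups of repaired and control tendons did not overlap. The tendons with high Ocstamp were high here too, at 38.2 and 38.5 CPM in 21D 0 mg/kg and 35.6 and 45.9 CPM in 21D 2 mg/kg, while the other 6 tendons of these groups were at 4.72 to 11.3 CPM. Differences from control, on the log2 scale, were 6.43 ± 1.3, 7.02 ± 1.31 and 6.42 ± 1.33 for the 3 doses at 7 days, then 7.70 ± 1.31 and 6.90 ± 1.3 at 21 days with 2 and 6 mg/kg. Each adjusted p was at most 0.000164 by edgeR, but Atp6v0d2 passed the filter only through the repaired groups. These p-values are therefore no separate support for its rise.

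Among the receptors, Oscar showed the same near-absence in control tendons. OSCAR is a collagen-binding receptor of myeloid cells that signals through an ITAM adaptor. It had 5, 2 and 0 counts in control and was at 6.80, 1.53, 5.03, 3.79 and 3.62 CPM in 7D 0 mg/kg. The tendons of 21D 6 mg/kg were at 0.127, 0.521, 1.41, 0.943 and 2.37 CPM, and the lowest of these tendons lay within the control range, the only overlap with control for this gene. The log2 fold change was 5.10 ± 1.18, 4.92 ± 1.20 and 4.94 ± 1.22 at 7 days with 0, 2 and 6 mg/kg. By 21 days it was 4.55 ± 1.17 with 2 mg/kg and 3.15 ± 1.17 with 6 mg/kg. The adjusted p was at most 0.00138 by edgeR except in 21D 6 mg/kg, where it was 0.0216 and did not pass without control replicate 3 (0.0726), control replicate 4 (0.0767) or 21D 6 mg/kg replicate 5 (0.0571). Since Oscar passed the filter only through the repaired groups, these p-values are no separate support for its rise.

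Tnfrsf11a, the receptor RANK itself, was at 6.79, 12.98 and 6.12 CPM in control tendons. It was at 22.1, 13.8, 16.6, 16.4 and 18.6 CPM in 7D 0 mg/kg and at 14.6, 15.9, 13.2, 17.6 and 17.0 CPM in 21D 2 mg/kg. These 2 groups lay above the highest control, but 1 tendon of 7D 2 mg/kg (9.63 CPM), 1 of 21D 6 mg/kg (11.04 CPM) and 2 of 21D 0 mg/kg lay below it. Its log2 fold changes were the smallest among the rising members, 1.01 ± 0.26, 0.998 ± 0.27 and 1.04 ± 0.29 for the 3 doses at 7 days, then 0.85 ± 0.26 and 0.82 ± 0.26 at 21 days with 2 and 6 mg/kg, with adjusted p of 0.00146 to 0.00830 by edgeR. At 21 days this call was lost without control replicate 2 or 4, with adjusted p up to 0.0752 at 2 mg/kg and 0.0854 at 6 mg/kg.

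Itgb3, the beta 3 integrin chain through which osteoclasts hold on to matrix and which endothelial cells and platelets also carry, was at 17.5, 12.9 and 2.86 CPM in control. It was at 39.9, 38.0, 21.7, 16.2 and 38.5 CPM in 7D 0 mg/kg and at 30.3, 30.4 and 30.5 CPM in 7D 6 mg/kg. The tendons of 21D 2 mg/kg were at 33.0, 32.4, 100.4, 38.1 and 25.3 CPM. All repaired tendons but 1 of 7D 0 mg/kg were above all controls, and the highest Itgb3 value of the study came from 21D 2 mg/kg replicate 3, the tendon with the lowest Ocstamp among the repaired ones. The differences stood at 1.45 ± 0.47, 1.66 ± 0.49 and 1.43 ± 0.50 on the log2 scale for the 3 doses at 7 days, then 2.03 ± 0.48 and 1.36 ± 0.47 at 21 days with 2 and 6 mg/kg, with adjusted p of 0.000625 to 0.0146 by edgeR. Without control replicate 4, the lowest of the controls, the calls in 7D 0, 7D 6 and 21D 6 mg/kg were lost, with adjusted p of 0.0699, 0.0926 and 0.106.

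Nfatc1, the transcription factor at the head of the programme, did not rise with the genes it is known to drive. It was at 75.3, 68.0 and 41.7 CPM in control, at 52.6, 49.6, 51.8, 50.1 and 58.0 CPM in 7D 0 mg/kg and at 46.0, 68.0, 49.5, 65.5 and 49.9 CPM in 21D 2 mg/kg. Repaired and control tendons overlapped in all groups. Against control, its log2 fold changes were -0.24 ± 0.19, -0.22 ± 0.20 and -0.38 ± 0.22 at 7 days and -0.15 ± 0.19 in 21D 2 mg/kg, none of them called (adjusted p = 0.124 to 0.507 by edgeR), and all 4 were above 0 when libraries were scaled by total counts alone. Without control replicate 4, the 3 values at 7 days were called lower. In 21D 6 mg/kg Nfatc1 was called lower, at -0.45 ± 0.19 (adjusted p = 0.0434), and that call was lost under 4 other settings, among them scaling by total counts alone, where the value was 0.028, and without any of 5 single tendons. With TMM, the largest rise that the 95% intervals of the 5 comparisons allow was 0.25 on the log2 scale.

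Counts over the members are a description, because Ocstamp chose the list and Ocstamp, Oscar and Atp6v0d2 passed the filter only where they were high. Of the other 5 members, Acp5, Ctsk, Itgb3 and Tnfrsf11a were called higher and none lower in 7D 0 mg/kg, where 35.8% of all genes were called higher and 35.6% lower. The same 4 of 5 were called higher in 7D 2 mg/kg (35.8% of all genes higher and 34% lower), 7D 6 mg/kg (34.1 and 33.8%), 21D 2 mg/kg (33.8 and 35.3%) and 21D 6 mg/kg (30.8 and 33.3%), and Nfatc1 in 21D 6 mg/kg was the 1 member called lower. In 21D 0 mg/kg, the comparison that chose the list, where 32.2% of all genes were called higher and 33.7% lower, the differences of all members but Nfatc1 were above 0, with log2 fold changes of 2.97 for Ctsk, 3.21 for Acp5 and -0.19 for Nfatc1. The median log2 fold change of those 5 members was 1.36 to 2.03 over the 6 repaired groups, beside 0.01 to 0.05 over all genes tested. In 21D 6 mg/kg, Oscar, Itgb3 and Tnfrsf11a were no longer called without control replicate 4, which left Acp5 and Ctsk of the 5. That tendon had the highest share of muscle counts (27.7%) and the lowest Acp5, Ctsk, Itgb3 and macrophage marker levels of the controls.

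**Figure D2:**
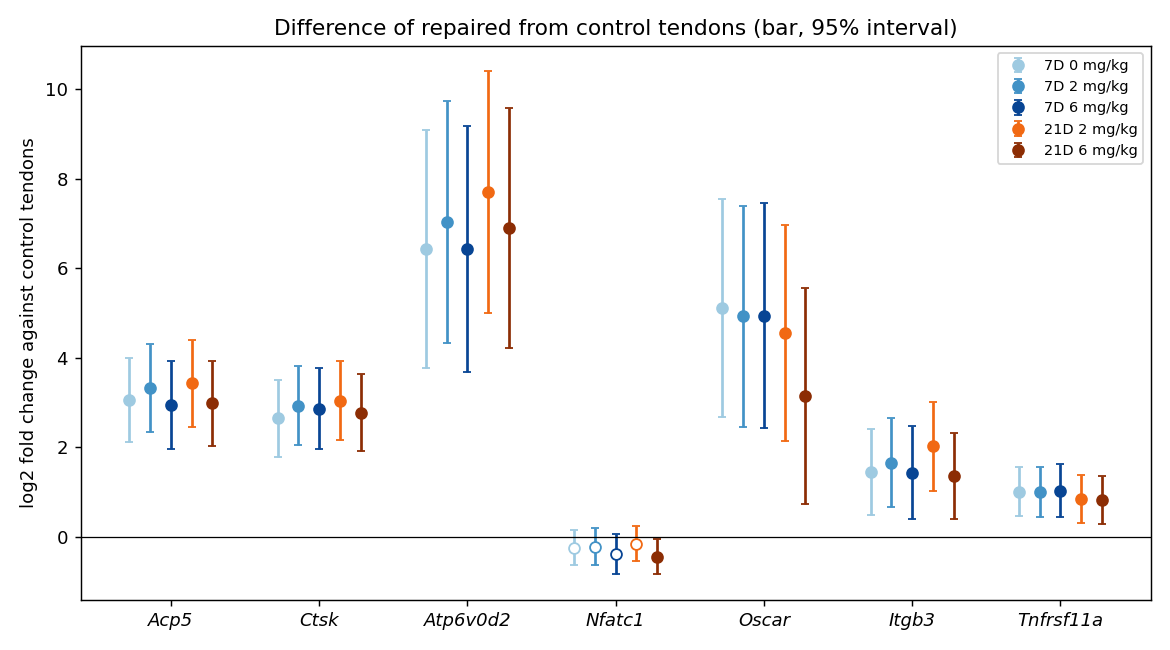
Log2 fold change against the control tendons for 7 measured genes in 5 groups. Points are edgeR estimates, bars their 95% intervals, and filled points passed an adjusted p of 0.05. Atp6v0d2 and Oscar passed the filter only through the repaired groups, so that their filled points are a description. The genes other than Nfatc1 lie above 0 in all 5 groups, with Tnfrsf11a the lowest at 0.82 in 21D 6 mg/kg, while Nfatc1 lies just below 0, and Ocstamp is left out because it chose the list and its controls had at most 1 count.

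Between 7 and 21 days the members did not change detectably. At 2 mg/kg no member was called higher (7.09% of all genes were) or lower (5.98%), and the differences were 0.10 ± 0.99 for Ocstamp, 0.10 ± 0.36 for Acp5, 0.11 ± 0.34 for Ctsk and 0.68 ± 0.70 for Atp6v0d2. The 95% intervals for Ctsk (-0.59 to 0.81) and Acp5 (-0.64 to 0.85) allow changes of less than 1 on the log2 scale, whereas that for Ocstamp was -1.93 to 2.13. At 6 mg/kg no member was called higher (8.54% of genes) or lower (4.55%) either. Oscar came nearest. All 5 tendons of 21D 6 mg/kg were below those of 7D 6 mg/kg, which were at 5.03, 2.80 and 3.22 CPM. The difference was -1.79 ± 0.80 (adjusted p = 0.145 by edgeR). Muscle content also differed over time at these doses, with all 25 muscle genes called higher at 21 days, and time and muscle content cannot be told apart there. The vehicle tendons at 21 days were taken as those that chose the list, and between these days 2.88% of all genes were called higher and 2.47% lower with vehicle. The members' differences there, given without a test, were 0.35 for Ocstamp, 1.14 for Atp6v0d2, 0.32 for Ctsk and -0.54 for Oscar.

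The dose of GSK2894631A was compared first at 7 days. None of the 8 members was called over the 3 doses, where 2.05% of all genes were, nor between 2 and 0 mg/kg (0.908% of genes higher and 1.45% lower) or 6 and 0 mg/kg (0.39% lower), and over the 3 doses their adjusted p was 0.903 to 0.997 by edgeR. The largest difference of any pair of doses was the -0.60 ± 0.80 of Atp6v0d2 between 7D 6 and 2 mg/kg. Muscle content also differed between the doses at 7 days, with 20 of 25 muscle genes called over the 3 doses. Dose and muscle content cannot be told apart between vehicle and the compound there. At 21 days no member, and none of the 12558 genes, was called between 6 and 2 mg/kg, although 1751 genes had an unadjusted p under 0.05. All 8 members were below 0 in that comparison, led by Ocstamp at -1.76 ± 0.97 (95% interval -3.75 to 0.23, adjusted p = 0.401) and Oscar at -1.40 ± 0.72 (adjusted p = 0.376). Itgb3 was at -0.67 ± 0.38 and Atp6v0d2 at -0.80 ± 0.65, and Ctsk and Tnfrsf11a, at -0.27 ± 0.32 and -0.02 ± 0.22, changed sign when 21D 2 mg/kg replicate 4 was left out. The 8 values are not separate results, since all but Itgb3 rose and fell together from tendon to tendon. For the change over time at 6 against 2 mg/kg, no member and no gene of the table was called (866 had an unadjusted p under 0.05). The intervals were wide, with a difference of -1.30 ± 1.46 for Ocstamp (95% interval -4.31 to 1.71) and -1.42 ± 1.09 for Oscar (-3.67 to 0.83).

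Tendons of the same group differed widely in several members. The highest tendon exceeded the lowest by 38.9-fold for Ocstamp in 21D 0 mg/kg and by 35.6-fold in 21D 2 mg/kg, and by 5.65-fold to 10.7-fold in the other repaired groups. The within-group SD of log2 CPM was 1.69 for Ocstamp, 1.20 for Oscar and 1.12 for Atp6v0d2, larger than in 98.8, 96.3 and 95.7% of the 12558 genes, whose median was 0.230. These are also the members with the fewest counts, 18 to 1003 for Ocstamp, 3 to 326 for Oscar and 68 to 2009 for Atp6v0d2 over the repaired tendons, and the part of counting error in their spread was not tested. Ctsk, with 7865 to 67172 counts, had an SD of 0.514, larger than in 84.6% of genes, and Acp5 and Itgb3 were at 0.588 and 0.540. Tnfrsf11a (0.330, larger than in 69.1% of genes) and Nfatc1 (0.248, 54.6%) lay nearer to the median gene.

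**Figure D3:**
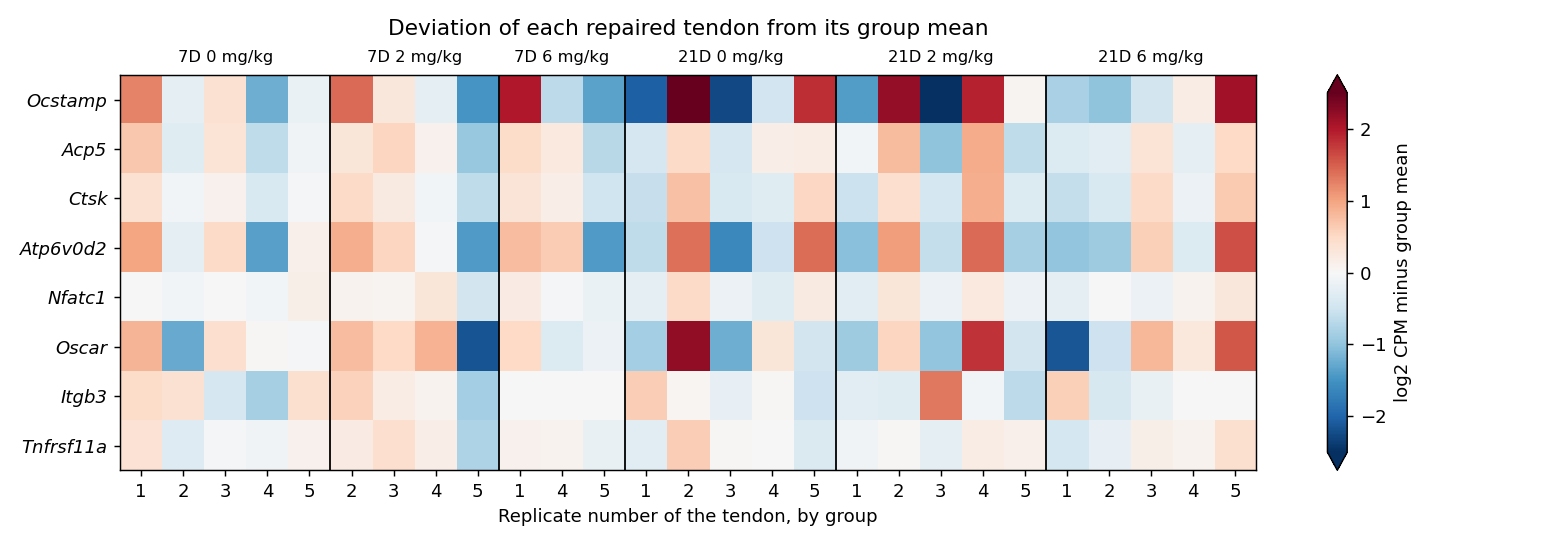
Deviation of each of the 27 repaired tendons from its group mean, in log2 CPM, for the 8 measured genes. Columns are tendons by group and replicate number, red is above and blue below the group mean. Red and blue run through most of the genes of a column together, as in 21D 0 mg/kg replicate 2 and 7D 2 mg/kg replicate 5, while the row of Itgb3 often goes its own way.

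The members other than Itgb3 moved together from tendon to tendon. Over the 27 repaired tendons, with each value taken relative to its group mean, Ocstamp followed Ctsk (Pearson r = 0.87, Spearman rho = 0.87), Atp6v0d2 (0.86 and 0.87), Acp5 (0.80 and 0.82), Nfatc1 (0.80 and 0.84), Oscar (0.73 and 0.75) and Tnfrsf11a (0.57 and 0.63). Without the 2 tendons of most extreme Ocstamp, r was 0.86 with Ctsk, 0.88 with Atp6v0d2 and 0.48 with Tnfrsf11a. Among the 21 pairs of members without Itgb3, r ran from 0.57 to 0.95, the highest being that of Ctsk with Atp6v0d2. Nfatc1 varied with the other members within groups although its level did not rise with repair. The tendon with the most Ocstamp was also that with the most Ctsk in 5 of the 6 repaired groups, and that with the most Acp5, Atp6v0d2, Nfatc1, Oscar or Tnfrsf11a in 4 of 6 each.

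Itgb3 stood apart. Its r with the other 7 members ran from -0.13 (Ocstamp) to 0.14 (Atp6v0d2), and its highest tendon was the one with the most Ocstamp in 2 of 6 groups. In 21D 2 mg/kg replicate 3, where Itgb3 was at 100.4 CPM, Ocstamp was at 0.538, Acp5 at 56.0 and Oscar at 1.02 CPM. These values are descriptions over tendons that share libraries, dissection and muscle content between genes, and no test was run on them.

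Among the genes whose within-group pattern was most like that of Ocstamp, of 12557 others over the same 27 tendons, were Rassf4 (r = 0.95), Olr1 (0.95), Il1rn (0.95) and Agap3 (0.95). Olr1 encodes the oxidized LDL receptor LOX-1 and Il1rn the interleukin-1 receptor antagonist. Of the members, Ctsk ranked 185th and Atp6v0d2 202nd in this order, and Itgb3 7037th, so that many genes outside the list followed Ocstamp as closely as the members did.

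Macrophage markers varied along with the members other than Itgb3, and so did dendritic cell and T cell markers. The 15 macrophage markers measured summed to 700 to 2500 CPM in control tendons, 3241 to 7558 CPM at 7 days and 2197 to 9373 CPM at 21 days, and the highest sum belonged to 21D 0 mg/kg replicate 2, the tendon with the most Ocstamp. Relative to the group means, the summed markers had r = 0.63 with Ocstamp (0.50 without the 2 most extreme tendons), 0.61 with Ctsk, 0.79 with Oscar and -0.25 with Itgb3 over 27 tendons. For Ocstamp, Ctsk, Oscar and Itgb3 in that order, the sum of 8 dendritic cell markers had r = 0.61, 0.58, 0.79 and -0.19. That of 9 T cell markers had r = 0.48, 0.46, 0.72 and -0.37, and that of 5 neutrophil markers -0.10, 0.10, 0.27 and 0.08. The part of macrophage number in the rise of the members was not tested. Cd68, a lysosomal protein of macrophages and osteoclasts, rose from 18.9 ± 10.2 CPM in control to 183 ± 65.8 in 7D 0 mg/kg, a log2 fold change of 3.27 (adjusted p = 0.000193 by edgeR). In all, 12, 12 and 14 of the 15 markers were called higher at 7 days with 0, 2 and 6 mg/kg and 10 and 8 at 21 days with 2 and 6 mg/kg. The share of all tested genes called higher in the same comparisons was 30.8 to 35.8%.

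**Figure D4:**
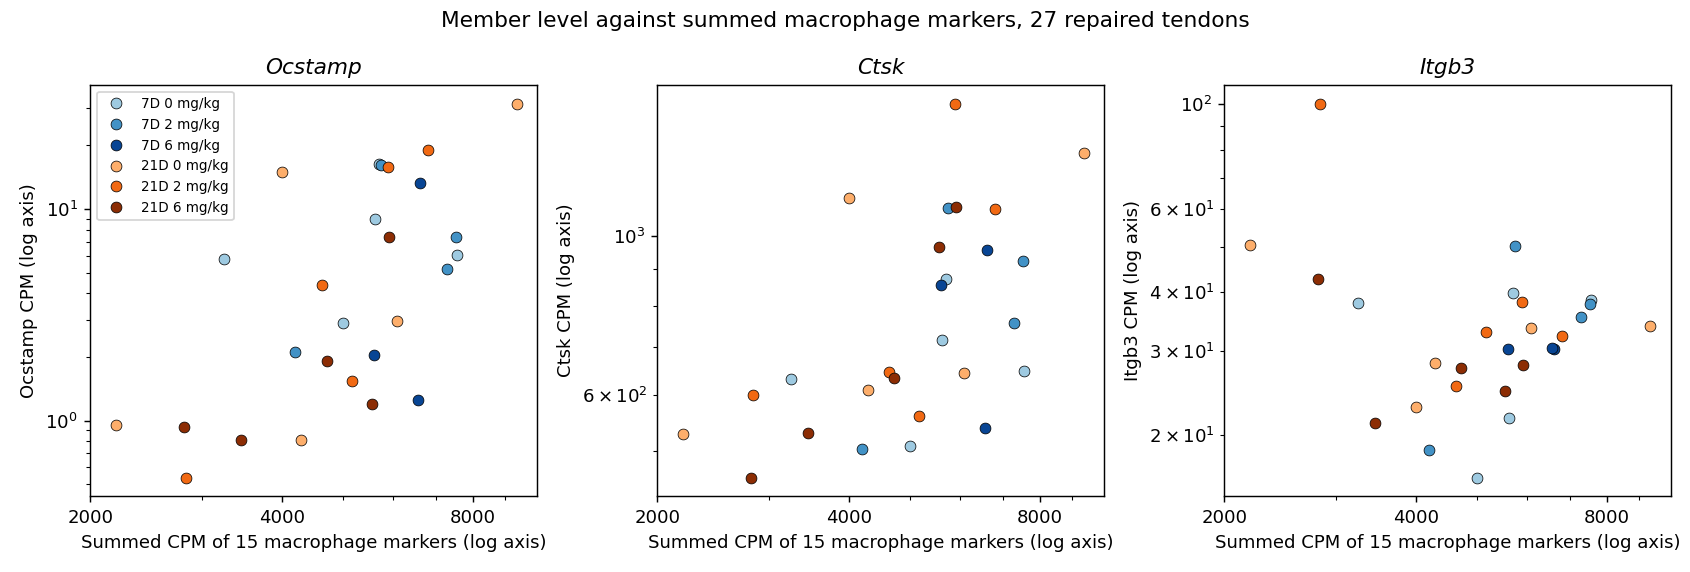
Level of Ocstamp, Ctsk and Itgb3 against the summed CPM of 15 macrophage markers in the 27 repaired tendons, both on log axes, with 1 point per tendon coloured by group. Ocstamp and Ctsk tend to be higher where the macrophage sum is higher, with tendons of equal sum still differing several-fold in Ocstamp, and Itgb3 shows no such trend.

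Most macrophage markers were not called between 7 and 21 days, but their median log2 fold change was below 0. Of the 15, 2 were called lower at 2 mg/kg (5.98% of all genes were) and 3 at 6 mg/kg (4.55%), and none higher. The median log2 fold change of the 15 was -0.55 at 2 mg/kg and -0.80 at 6 mg/kg, beside 0.10 and -0.08 for the 8 measured members. Aif1 was called lower at 2 mg/kg (-1.04, adjusted p = 0.00596) and 6 mg/kg (adjusted p = 0.0130), as was Cd163, a scavenger receptor of resident-type macrophages (-1.63 and -1.57, adjusted p = 0.0246 and 0.0400 by edgeR), and Adgre1 was called at 6 mg/kg alone. The other markers, like the members, were not called. Neutrophil markers were called lower in 2 of 5 genes at 2 mg/kg and 4 of 5 at 6 mg/kg, T cell markers in 3 and 6 of 8, and dendritic cell markers in 2 and 4 of 8. The 5 neutrophil markers summed to 6.92 to 32.2 CPM per tendon at 21 days. These counts are a description wherever a gene passed the filter only through the 7-day groups. The difference between the members' and these markers' changes over time was not tested.

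The upstream and co-stimulatory pathway genes were read from lists fixed alongside the members, and their counts are set beside the 35.8, 35.8 and 34.1% of all genes called higher at 7 days with 0, 2 and 6 mg/kg and the 33.8 and 30.8% at 21 days with 2 and 6 mg/kg. All 11 measured genes of ITAM co-stimulation were called higher in each of the 5 tested groups against control. That count is a description, because genes among them, such as Siglec15 and Blnk, passed the filter only through the repaired groups. Tyrobp, the adaptor DAP12, rose from 49.4 ± 25.5 to 258 ± 62.4 CPM in 7D 0 mg/kg (log2 fold change 2.38, adjusted p = 5.95e-05), and its partner receptor Trem2 from 21.0 ± 13.4 to 122 ± 37.7 CPM (2.53, adjusted p = 3.91e-05 by edgeR). Siglec15, a sialic acid receptor of osteoclasts that pairs with DAP12, had 0 counts in all 3 control tendons and averaged 1.42 to 3.43 CPM in the repaired groups. The adaptor Blnk rose from 2.07 ± 0.874 to 21.5 ± 3.63 CPM in 7D 0 mg/kg, and none of the 11 was called between 21 and 7 days at 2 or 6 mg/kg.

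Of 18 genes of RANK and CSF1 signalling other than Tnfrsf11a, 10, 11 and 8 were called higher at 7 days with 0, 2 and 6 mg/kg and 14 and 7 at 21 days with 2 and 6 mg/kg, and 1 was called lower in each. The 8 in 7D 6 mg/kg and the 7 in 21D 6 mg/kg were near the share of all genes called higher there (34.1 and 30.8%). These counts are a description, because genes among the 18 passed the filter only through the repaired groups. Spi1, the myeloid factor PU.1, rose from 17.2 ± 11.3 to 84.7 ± 21.2 CPM in 7D 0 mg/kg (2.29, adjusted p = 0.000321), and Jdp2, an AP-1 family factor, from 32.05 ± 7.28 to 62.0 ± 5.80 CPM (0.95, adjusted p = 9.95e-07 by edgeR). The growth factor Csf1 was called in 7D 2 mg/kg (1.10, adjusted p = 0.0170) and 21D 2 mg/kg (1.16, adjusted p = 0.0104) but not in the other 3 groups, and its receptor Csf1r was called in all groups but 21D 6 mg/kg. Mitf, a partner of PU.1 in osteoclasts, was called higher in both 2 mg/kg groups alone, and whether doses differed in it was not shown, since no gene of the list was called between doses at 7 days. Tnfrsf11b, the decoy receptor osteoprotegerin that binds RANK ligand, rose from 23.3 ± 13.5 to 63.7 ± 18.9 CPM in 7D 2 mg/kg (1.44, adjusted p = 0.000517) and was called in all groups but 7D 6 mg/kg.

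Of 22 genes of the macrophage fusion list measured, 14, 18 and 14 were called higher at 7 days with 0, 2 and 6 mg/kg and 16 and 15 at 21 days with 2 and 6 mg/kg, and at most 2 were called lower, where 30.8 to 35.8% of all genes were called higher and 33.3 to 35.6% lower. Mmp9, the gelatinase that osteoclasts, macrophages and neutrophils make, rose from 0.395 ± 0.230 CPM in control to 94.9 ± 57.2 in 7D 0 mg/kg (7.85, adjusted p = 5.07e-05 by edgeR) and was at 57.7 to 123 CPM on average at 21 days. Mmp9 passed the filter only through the repaired groups, so that its p-value is no separate support for the rise. The counts of the fusion list called higher, which hold Mmp9, are a description for the same reason. Cd44, the hyaluronan receptor, rose from 68.3 ± 34.7 to 395 ± 157 CPM in 7D 0 mg/kg (2.53, adjusted p = 2.63e-06) and was called higher still in 21D 6 than in 7D 6 mg/kg (1.18, adjusted p = 0.0296 by edgeR). Cdh1 was called lower in 21D 2 than in 7D 2 mg/kg and Chi3l1 lower in 21D 6 than in 7D 6 mg/kg.

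Genes of acidification and bone resorption other than the members were mixed, with 9 to 15 of 26 called higher and 2 to 4 lower over the 5 groups. Of all genes, 30.8 to 35.8% were called higher and 33.3 to 35.6% lower. The lowest count, 9 in 21D 6 mg/kg, was near the 30.8% of all genes called higher there. Tcirg1, the a3 subunit of the osteoclast proton pump, rose from 45.2 ± 4.4 to 136 ± 32.5 CPM in 7D 0 mg/kg (1.59, adjusted p = 0.00348), and Src from 24.2 ± 9.51 to 77.3 ± 8.28 CPM (1.67, adjusted p = 1.52e-08 by edgeR). Car2, the carbonic anhydrase that feeds the pump with protons, was not called in any of the 5 groups. Calcr, the calcitonin receptor that marks mature osteoclasts, was not analysed here, so the label osteoclast rests on genes that macrophages and giant cells share.

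Inhibitors of osteoclast formation were mixed. Of 9 tested, 5 or 6 were called higher and 2 or 3 lower in each group, beside 30.8 to 35.8% and 33.3 to 35.6% of all genes. Irf8, which holds back NFATc1 in precursors, rose from 9.45 ± 3.76 to 135 ± 53.5 CPM in 7D 0 mg/kg (3.83, adjusted p = 2.45e-08) and was called lower at 21 than at 7 days with 2 mg/kg (-0.96, adjusted p = 0.0466) and 6 mg/kg (-1.68, adjusted p = 0.00231). Sfrp1, a secreted Wnt antagonist, also fell over time at both doses (-1.17 and -1.06, adjusted p = 0.00101 and 0.00463 by edgeR).

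Bone-forming cells left no uniform sign in the comparisons against control, where 30.8 to 35.8% of all genes were called higher and 33.3 to 35.6% lower. Of 6 osteoblast and bone matrix markers tested, Runx2, Phex and Spp1 were called higher in all 5 groups, Mepe and Dmp1, which osteocytes make, were called lower in all 5, and Alpl, the alkaline phosphatase of mineralizing cells, was called lower in all but 7D 0 mg/kg (-1.02, adjusted p = 0.0759 by edgeR). Spp1, osteopontin, which macrophages also secrete, rose from 6.65 ± 1.72 CPM in control to 1428 ± 1129 in 7D 0 mg/kg and ranged from 74.4 to 4840 CPM over the repaired tendons. It made up 75.6 to 99.4% (median 96.4%) of the summed level of the 7 osteoblast markers in the table, whose r of 0.86 with Ocstamp and 0.91 with Ctsk, relative to the group means over 27 tendons, is therefore largely that of Spp1. Without Spp1 the sum had r = 0.45 with Ocstamp and 0.50 with Ctsk. The sum of 9 tendon fibroblast markers had r = -0.36 (Atp6v0d2) to 0.03 (Tnfrsf11a) with the members. That of 25 muscle genes had r = -0.65 with Oscar, -0.61 with Tnfrsf11a, -0.55 with Ctsk, -0.49 with Atp6v0d2, -0.41 with Nfatc1, -0.40 with Ocstamp, -0.39 with Acp5 and -0.07 with Itgb3, and the part of muscle content in the members' variation within groups was not tested.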

How the data were processed

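Plantaris tendon RNA of 30 rats was sequenced by the authors on an Illumina HiSeq system as single-end reads, trimmed with fastp, aligned to the rat genome rn6 with STAR and counted per gene, and libraries of poor read quality were removed by them. Per the labels, FastQC and edgeR were also used. The deposited table holds raw counts per gene. A second deposited table holds the authors' own comparisons (fold changes, p-values) and was not used. Whether counting used strand is not given in the sources used here.

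The members and lists were chosen with earlier results of these data known. Samples were grouped by the labels, and the 3 tendons of 7D 6 mg/kg analysed here are fewer than the study's methods describe. A gene was kept where the mean of some group reached 3 CPM (12558 of 13124, 566 removed), and edgeR 4.0.16 (R 4.3.3) was fitted to all 7 groups with TMM and Benjamini-Hochberg adjustment. Replicates come from separate animals. The smallest chi-square per gene between tendons of a group was 29.6, so no pair of libraries was taken for the same one. All members were described, and of each other list at most 4 genes with the smallest p between 21D and 7D 2 mg/kg plus markers set for the lists. Dmp1, Alpl, Adgre1, Fmod, Chad and Col1a1 were named, and the values without single repaired tendons for the Ocstamp bounds, without Spp1 and for the 5 members that reach the filter in control were added, after the data were seen. In simulated counts for 21D 2 against 7D 2 mg/kg (12173 genes), 68.4% of 2-fold and 92.8% of 4-fold changes were called. The changed genes were drawn at random, so that these shares do not describe Ocstamp, Oscar and Atp6v0d2. Their within-group SD was larger than in 98.8, 96.3 and 95.7% of genes. Intervals and floors cover counting error only where they come from counts. Of the 5 genes most like Ocstamp, 1 is not reported here.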

Additional observations from a re-analysis of the deposited data

Results flagged for a closer look

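In 40 checks of the members in groups of 4 or 5 tendons, 3 single tendons stood far from the others of their group, where chance marks about 1 in 20. Ocstamp was at 7.42 CPM in 21D 6 mg/kg replicate 5, while the next tendon was at 1.91 CPM. Oscar was at 8.93 CPM in 21D 0 mg/kg replicate 2, while the next was at 2.33 CPM, and that tendon also had the highest Ocstamp (31.5 CPM) and macrophage marker sum (9373 CPM) of all tendons. Itgb3 was at 100.4 CPM in 21D 2 mg/kg replicate 3, while the next was at 38.1 CPM, and that tendon had the lowest Ocstamp (0.538 CPM) and the lowest macrophage marker sum (2823 CPM) of its group.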

How the results depend on the processing

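Size factors of another kind (RLE), total counts alone, no filter on low counts, a fit to the compared groups alone, the replicate number as a block, DESeq2 1.42.0, leaving out each tendon in turn and, for time and dose, the muscle share as a covariate were tried. Of 920 recomputed fold changes, 854 kept their direction and side of the threshold, 21 lost and 3 gained a call and 42 changed sign, and DESeq2 and RLE were among the settings that changed no member's call. The 920 include those of Ocstamp against control, which are not read as tests. Scaling by total counts alone moved the median log2 fold change of all genes against control from 0.01 to 0.05 to 0.51 to 0.64. The share of the called genes that were called higher moved from 48.0 to 51.3% to 74.1 to 75.9%. Under it Nfatc1 was at 0.33, 0.30 and 0.18 in 7D 0, 2 and 6 mg/kg and 0.36 and 0.028 in 21D 2 and 6 mg/kg against control, below that shift in each, and Acp5 at -0.039 in 21D against 7D 6 mg/kg. The 1 member called lower in 21D 6 mg/kg, Nfatc1, became 0 under total counts alone, no filter (adjusted p = 0.0510), the compared groups alone (0.0805) and the replicate block (0.0865), and ranged from 0 to 1 over tendons left out (control replicates 2 and 3 and 21D 6 mg/kg replicates 1, 2 and 3 lost it). Members called lower in 7D 0, 2 and 6 mg/kg ranged from 0 to 1, Nfatc1 being gained without control replicate 4. Members called higher in 21D 6 mg/kg ranged from 4 to 7, beside 30.8% of all genes with TMM. That count is a description, because it holds Ocstamp, which chose the list, and Oscar and Atp6v0d2, which passed the filter only through the repaired groups. In the compared groups alone, Tnfrsf11a in 7D 2 mg/kg (adjusted p = 0.0578) and Itgb3 in 7D 6 mg/kg (0.0666) and 21D 6 mg/kg (0.0528) were lost. Replicate numbers did not pair the tendons (r of same-numbered tendons -0.701 to 0.681, median 0.00685, and 10 of 30 tendons correlated best with their own number), and with the replicate block Ocstamp was at -0.058 between 21D and 7D 2 mg/kg. With the muscle share as a covariate, 1 member was called higher in 21D than 7D 2 mg/kg, Oscar at 2.97 (adjusted p = 0.0386), Tnfrsf11a was at 0.77, and in 21D against 7D 6 mg/kg Ocstamp was at 1.24, Ctsk at 1.06, Nfatc1 at 0.41, Oscar at 1.38, Itgb3 at 0.079 and Tnfrsf11a at 0.69, but muscle share hardly varied within 7D 2 and 6 mg/kg and did not overlap between the days. Over tendons left out, uncalled differences between 21D and 7D 2 mg/kg ran from -0.47 to 0.75 for Ocstamp, -0.16 to 0.29 for Acp5, -0.18 to 0.28 for Ctsk, -0.056 to 0.18 for Nfatc1 and -0.14 to 0.58 for Itgb3. Between 21D and 7D 6 mg/kg they ran from -2.21 to 0.61 for Ocstamp, -0.23 to 0.27 for Acp5, -0.30 to 0.082 for Ctsk, -0.13 to 0.84 for Atp6v0d2, -0.15 to 0.047 for Nfatc1 and -0.26 to 0.019 for Itgb3, and between 21D 6 and 2 mg/kg from -0.45 to 0.026 for Ctsk and -0.14 to 0.074 for Tnfrsf11a. The cause of these changes was not tested. Depth limits Ocstamp, Oscar and Atp6v0d2, whose control levels lie at or under the floor of 3 counts in at least 1 tendon.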
